A study of Homo sapiens with 4 samples.

Results

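The genes described here mostly encode the proteins of the cytoplasmic ribosome and the initiation and elongation factors that work with it. They were chosen by symbol alone, as genes whose name begins with RPL or RPS and a digit, RPLP, RPSA, EEF, or EIF and a digit. The RPS6K and EIF2AK kinases and paralogues such as RPL7L1 and RPL22L1 were left out. RPL21P106, EIF4EBP1, EEF2K and EEF2KMT match as well, but are a pseudogene, an inhibitor and enzymes that modify a factor. All are counted in their classes. The array carried 51 such genes among 4604 named genes and 9681 features in all, a feature being a named gene or an unnamed probe. Of these 51, 13 belong to the large subunit, 14 to the small subunit, 19 to initiation and 5 to elongation. Values on at least 3 of the 4 arrays were present for 45 of them.

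The study used EJM, an established multiple myeloma cell line from bone marrow, engineered to express a super-repressor of IκBα under control of the tetracycline repressor. IκBα keeps NF-κB out of the nucleus, and the super-repressor form resists the breakdown that normally frees them. Cells treated with doxycycline at 20 µg/ml and 37 °C for 1, 2, 3 or 4 days were set against uninduced cells of the same engineered line, with 1 two-colour array for each day. The uninduced cells therefore carried the transgene as well, and doxycycline on cells without it was not analysed here. Whether the line is a single clone is not stated in the labels.

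The ribosome is built from a small subunit, which binds and decodes the mRNA, and a large subunit, which joins amino acids. Initiation factors bring the first tRNA and the capped mRNA to the small subunit, and elongation factors deliver the following tRNAs and move the ribosome along. Plasma cells and myeloma cells secrete antibody and depend on a high rate of protein synthesis. Most ribosomal protein mRNAs, and those of several elongation factors, begin with a C and an unbroken stretch of pyrimidines (C and T). This element, the terminal oligopyrimidine or TOP motif, couples their translation to nutrient and growth signals through the kinase mTOR.

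The start sites show how the classes differ in this element. Each line below gives 10 bases before and 20 bases from an annotated transcription start of the RefSeq promoter table (GRCh38.p14), 5′ to 3′. Capitals mark a pyrimidine run that begins with C at the start base and is at least 5 bases long. The genes were picked as the members with high or contrasting values in the sections that follow, so they are no sample of their classes. EIF5, EIF6 and EIF4G2, the initiation genes with the largest means (0.56, 0.47 and 0.43), had no such run. RPL10, with a mean of -0.02, had such a run at an annotated start.
EEF1A1: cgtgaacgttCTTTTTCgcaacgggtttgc
EEF1B2: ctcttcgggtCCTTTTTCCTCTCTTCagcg
RPLP1: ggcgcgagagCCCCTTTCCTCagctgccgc
RPL37A: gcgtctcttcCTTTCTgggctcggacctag
RPS3A: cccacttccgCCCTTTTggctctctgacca
RPS21: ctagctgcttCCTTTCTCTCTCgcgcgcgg
RPS4X: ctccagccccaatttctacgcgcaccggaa
RPL27: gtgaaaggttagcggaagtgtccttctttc
EIF4E: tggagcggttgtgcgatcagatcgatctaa
EIF3B: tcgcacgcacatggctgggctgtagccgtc

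These windows lie at chr6:73521013-73521042 (minus strand) for EEF1A1, chr2:206159885-206159914 (plus) for EEF1B2, chr15:69452808-69452837 (plus) for RPLP1 and chr2:216498834-216498863 (plus) for RPL37A. Those of the small subunit are at chr4:151099618-151099647 (plus) for RPS3A, chr20:62387093-62387122 (plus) for RPS21 and chrX:72277229-72277258 (minus) for RPS4X. The remaining windows are at chr17:42998409-42998438 (plus) for RPL27, chr4:98929114-98929143 (minus) for EIF4E and chr7:2354817-2354846 (plus) for EIF3B. Each spans the last bases of the promoter and the first bases of the first exon. EEF1B2 has another annotated start, which lacks such a run.

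The promoter table held 38 of the 51 genes by symbol. A TOP-like start, meaning C at the start base followed by at least 4 further bases that are all C or T, was found for 7 of 9 large subunit genes and 9 of 11 small subunit genes. It was found for 2 of 3 elongation genes (EEF1A1 and EEF1B2) and 1 of 15 initiation genes (EIF3M). Over all 27305 genes of the table the share was 5.14%. A gene without a match lacks only these letters at its annotated start bases. The CACGTG E-box, which is its own reverse complement and is bound by MYC, was present in 4 of the 38 genes within 250 bases before to 50 after a start (EEF2K, EIF4E, EIF4G1 and EIF4H), against 8.77% of all genes. The NF-κB decamer consensus, searched on both strands, was in 0 of the 38 and in 7.09% of all genes.

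Every value is a log2 ratio of induced over uninduced cells, so a value of 0 means equal signal and 1 means 2-fold higher signal in induced cells. The direction follows the labelled dyes, Cy5 for induced and Cy3 for uninduced cells on all 4 arrays, and base 2 was assumed, since neither is stated with the values. No array carried swapped dyes, so a dye bias of a gene cannot be told apart from induction. Values were present for 10321 to 13872 of 15246 probes. The day 1 and day 2 arrays had SDs over probes of 0.517 and 0.569, against 0.345 and 0.38 on days 3 and 4, with medians from -0.068 to 0.004. Correlations between arrays over probes ran from 0.02 (days 1 and 4) to 0.566 (days 3 and 4). A ratio holds no level, so markers could not verify the cell type. Their mean ratios were above 0 for 7 of 7 plasma cell markers, 3 of 4 T cell markers, 2 of 4 myeloid markers and 1 of 2 red cell markers, with medians of 0.50, 0.10, 0 and 0.36. HBB, a red cell marker, was the marker that passed the test on the mean (0.85 ± 0.09; limma adjusted p = 0.0381), and its part in the results below was not tested.

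Ribosomal protein genes as a group read above 0 on every day. Of 25 ribosomal protein genes with values on at least 3 arrays, 23 had a mean ratio above 0, against 43.9% of all 7713 features tested. Their daily medians were 0.42, 0.29, 0.13 and 0.20 from the first day to the last. Over all features tested the medians were -0.062, -0.081, 0.017 and 0.0115. These daily values are not scaled for the larger spread of the day 1 and day 2 arrays. Equal amounts of total RNA (50 µg) went into both labelling reactions, so an equal gain or loss of all RNA per cell would not be seen. In such bulk samples fewer cells of a type and less RNA per cell cannot be told apart. No ribosomal protein or translation factor gene passed the test on the mean (0 of 45 with limma, Benjamini-Hochberg adjusted over all 7713 features, smallest adjusted p = 0.109). Over all features 0.337% passed. An unadjusted p under 0.05 was found for 13 of the 45 on the higher side, against 6.47% of all features, and for 0 on the lower side, against 6%. Values above 0 on every array measured were found for 18 of the 25 ribosomal protein genes and 24 of the 45 members, against 11.9% of all features. Nothing in the labels says that the 4 arrays came from separate cultures, and each is another day, so the p-values reflect the spread among these arrays, which may be technical.

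**Figure D1:**
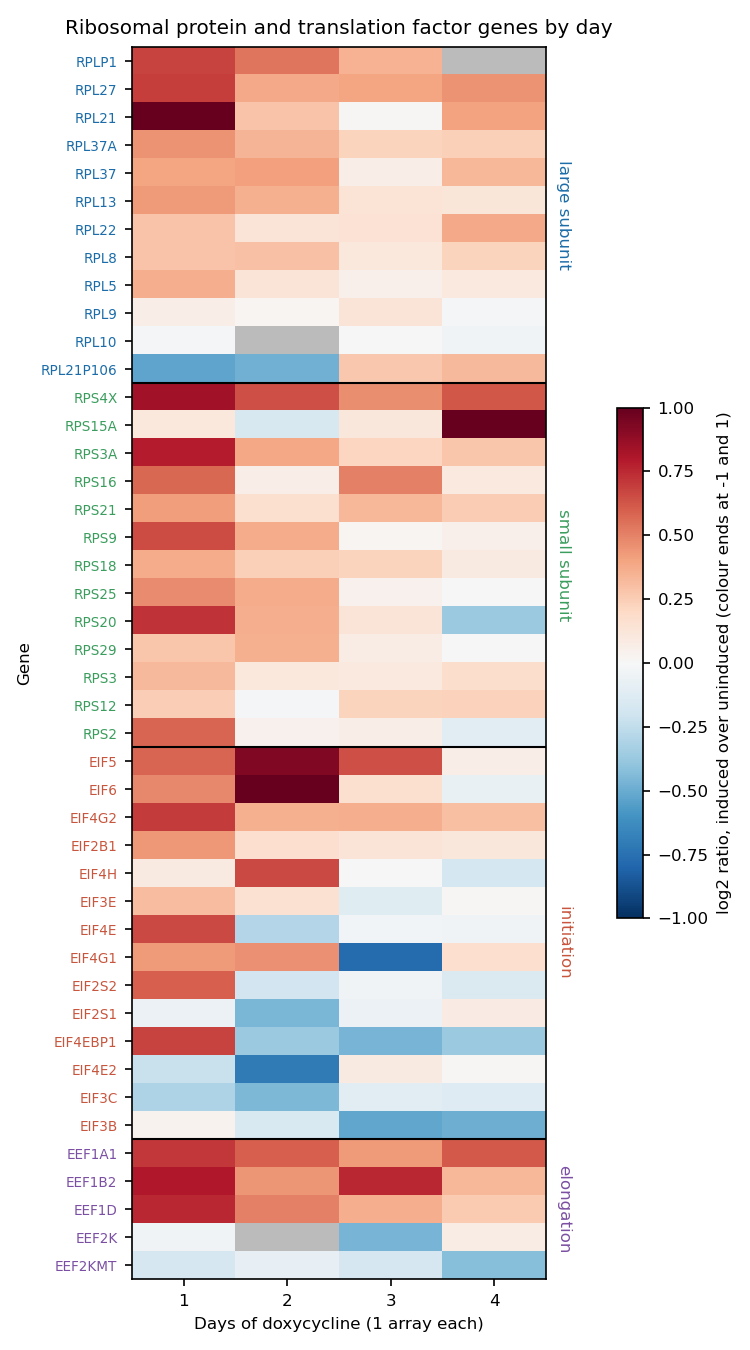
Heat map of log2 ratios (induced over uninduced) for 44 genes in rows and the 4 days in columns, grouped by class and ordered by mean within each class, with grey where no value was given; the colour scale ends at -1 and 1. Ribosomal protein rows and the top 3 elongation rows are mostly red on all days, while initiation rows are mixed after day 1.

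In the large subunit, 10 of 12 genes had means above 0, and the daily class medians were 0.376, 0.292, 0.133 and 0.241. RPL27, a protein of the subunit's surface, had values of 0.69, 0.38, 0.40 and 0.45 on days 1 to 4. These lay above 0 on all days, with a mean of 0.48 ± 0.15 (SD, 4 arrays; limma adjusted p = 0.208), or 1.39-fold. RPLP1, an acidic protein of the flexible stalk that recruits elongation factors, read 0.67, 0.54 and 0.35 on days 1 to 3 and had no day 4 value. Its mean was 0.52 ± 0.16 (SD, 3 arrays; limma adjusted p = 0.256). RPL37A read 0.45, 0.34, 0.23 and 0.24, a narrow range that stayed above 0, with a mean of 0.31 ± 0.10. RPL37 had its smallest value on day 3, at 0.065, with 0.39, 0.41 and 0.33 on the other days in order and a mean of 0.30 ± 0.16.

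RPL21 was the highest of all members on day 1, at 1.01, and read 0.29, 0.01 and 0.41 afterwards (mean 0.43 ± 0.42, and 0.234 without day 1). Its day 1 and day 2 values came from 1 probe, and a second probe with values only on days 3 and 4 (-0.29 and 0.35) entered the later averages. RPL21P106, annotated as a pseudogene of RPL21, read -0.53, -0.48, 0.27 and 0.32, below 0 at first and above 0 later. It was the lowest ribosomal entry on the first days and lay among the functional genes on the last. Probes of ribosomal protein genes can cross-hybridise with their many processed pseudogenes and with related family members, so values of single genes are uncertain to that extent.

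The other large subunit genes were closer to 0. RPL5, which with RPL11 carries the small ribosomal RNA of the large subunit and can bind the p53 regulator MDM2, read 0.36, 0.13, 0.05 and 0.10 (mean 0.16 ± 0.14, and 0.091 without day 1). RPL11 had a value on day 4 only, at -0.067. RPL13, measured by the most probes of any member (11, of which 10 gave a value), read 0.43, 0.35, 0.14 and 0.12 (mean 0.26 ± 0.15). RPL8 and RPL22 were above 0 on all 4 days, with means of 0.23 ± 0.09 and 0.23 ± 0.12. RPL9 had a mean of 0.05 ± 0.06. RPL10, a late-joining protein near the catalytic centre, read -0.02, -0.001 and -0.04 on days 1, 3 and 4. It was the large subunit gene with the smallest SD, 0.0185 over 3 arrays, and RPL10 and RPL21P106 were the only members of the class with means below 0.

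In the small subunit all 13 genes had means above 0, between 0.1455 for RPS2 and 0.64 for RPS4X. The daily class medians were 0.473, 0.241, 0.127 and 0.101. RPS4X, the X-linked copy of a protein of the subunit body, read 0.84, 0.64, 0.47 and 0.62. All 4 values lay well above 0, the lowest on day 3, with a mean of 0.64 ± 0.15 or 1.56-fold (limma adjusted p = 0.109). This was the largest mean and the smallest p among all members. RPS3A, which lies where initiation factors dock, read 0.78, 0.38, 0.22 and 0.28 (mean 0.42 ± 0.25; limma adjusted p = 0.298). The day 1 average includes a probe at 1.175 that had no value on days 2 and 3, and the mean of the 3 complete probes was 0.41 ± 0.19.

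RPS21 read 0.42, 0.16, 0.34 and 0.25 (mean 0.29 ± 0.11), with no order by day. RPS16, near the decoding site, alternated between high values on days 1 and 3 (0.58 and 0.51) and low ones on days 2 and 4 (0.06 and 0.10). RPS3, which forms part of the mRNA entry channel, read 0.33, 0.10, 0.10 and 0.18 (mean 0.18 ± 0.11). RPS9 had a mean of 0.27 ± 0.30, and 0.149 without day 1. For several genes the probes with a value differed between days, so the order of their daily averages is not that of a fixed set of probes. RPS18 averaged 0.37, 0.24, 0.23 and 0.09 (mean 0.23 ± 0.11), while its complete probe read 0.368, 0.241, 0.07 and 0.206. RPS12 averaged 0.25, -0.01, 0.22 and 0.23, but its complete probe read -0.091 on day 3, where another probe measured on that day alone read 0.536. RPS25 had a mean of 0.22 ± 0.23, while its complete probe read 0.292, 0.369, 0.434 and 0.234, with no early maximum. RPS29 (mean 0.18 ± 0.17) had 2 complete probes among 4, with means of 0.387 and 0.0915. RPS6, the substrate of the S6 kinases, had values on days 3 and 4 only, at -0.17 and -0.066.

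Single values decided the picture for a few genes. RPS15A read 0.11, -0.16 and 0.12 on days 1 to 3 and 2.03 on day 4, from 1 probe. Its mean of 0.52 ± 1.01 rests on that array, and without day 4 the mean was 0.02. RPS20 went from 0.72 through 0.37 and 0.13 to -0.37. Only 1 of its probes had values on all days, and that probe read 0.722, 0.365, 0.242 and 0.097. The other, present on days 3 and 4 alone, read 0.011 and -0.833 and turned the day 4 average negative. The RPS20 mean of 0.21 ± 0.46 was 0.041 without day 1 and 0.405 without day 4. RPS2 read 0.59, 0.05, 0.07 and -0.12, so its mean of 0.15 ± 0.30 came from day 1 and was -0.001 without it.

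**Figure D2:**
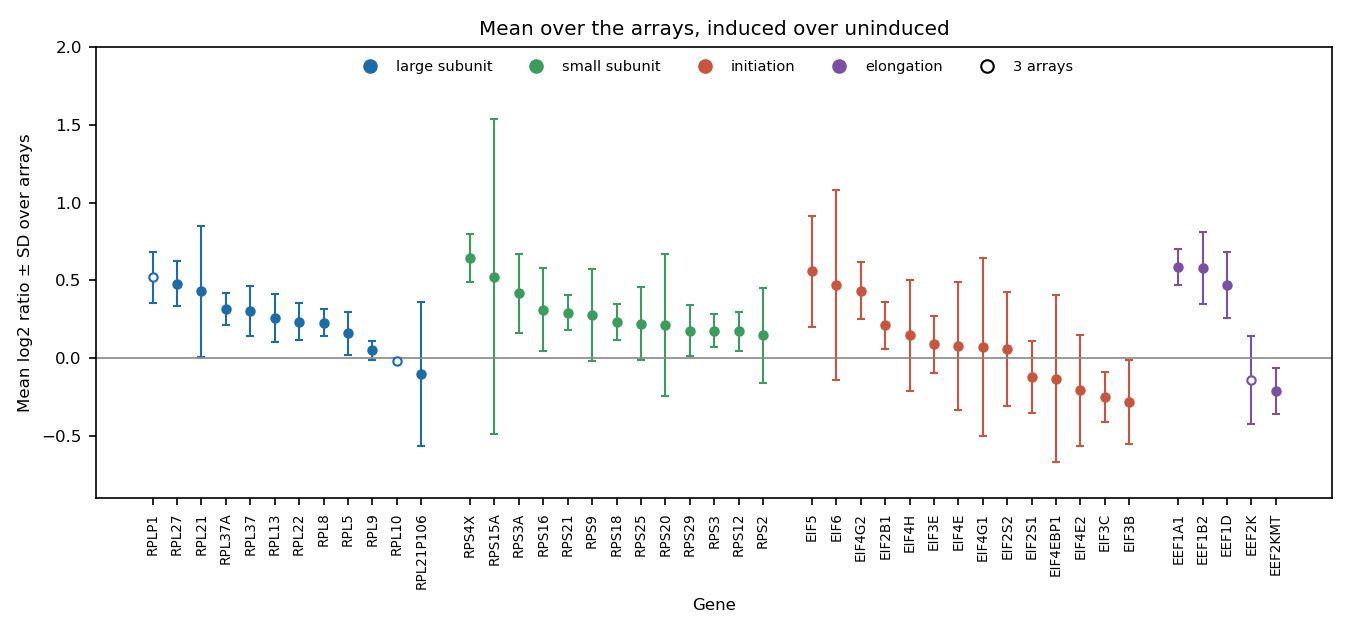
Mean log2 ratio (induced over uninduced) of each gene on the vertical axis, with bars of 1 SD over the arrays, by class; open symbols mark genes with 3 arrays. The small subunit means all lie above 0, RPS15A and RPS20 have the widest bars of that class, and 3 elongation genes stand near 0.5 while the other two lie below 0.

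The elongation genes had means on both sides of 0. The genes of the eEF1 complex, which delivers aminoacyl-tRNA to the ribosome and recharges itself with GTP, were above 0 on every array. EEF1A1, the GTPase that carries the tRNA, read 0.71, 0.60, 0.43 and 0.61. These values were close together, with a mean of 0.59 ± 0.12 (SD, 4 arrays; limma adjusted p = 0.121), or 1.50-fold. EEF1B2, a nucleotide exchange subunit, read 0.80, 0.44, 0.75 and 0.33 (mean 0.58 ± 0.23; limma adjusted p = 0.169). EEF1D, the other exchange subunit, read 0.75, 0.50, 0.36 and 0.26, lower on each later day (mean 0.47 ± 0.21; limma adjusted p = 0.231). The median of these 3 genes exceeded that of the ribosomal proteins on all 4 days, by 0.33, 0.21, 0.30 and 0.13, a mean difference of 0.24 ± 0.09 (SD over days). The eEF1 group is not one of the 4 classes, and its genes are the 3 elongation genes with means above 0. Its excess is therefore a description and no test.

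Of the enzymes that modify the translocation factor eEF2, 1 was below 0 on all arrays and the other on both sides of 0. EEF2K, the kinase that inactivates eEF2, read -0.04, -0.46 and 0.07 on days 1, 3 and 4 (mean -0.14 ± 0.28, 3 arrays), and without day 3 its mean was 0.018. EEF2KMT, a methyltransferase of eEF2, was below 0 on all 4 arrays at -0.17, -0.08, -0.17 and -0.43 (mean -0.21 ± 0.15; limma adjusted p = 0.499). All-negative values were found for 4 of the 45 members, against 14.7% of all features. With both enzymes counted in, the elongation median was 0.71, 0.47, 0.36 and 0.26 on days 1 to 4. EEF2 itself was not analysed here.

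Initiation factors read high on day 1 and scattered around 0 afterwards. Of 15 genes, 11 were above 0 at day 1, then 7 of 15, 6 of 15 and 7 of 14. The corresponding shares of all features were 44.1%, 41.6%, 52.9% and 51.5%. The daily class medians were 0.424, -0.152, -0.037 and -0.0141. Over the mean of the arrays, 9 of 15 were above 0 and the median was 0.0715. Its sign rests on the first days: without day 1 the median was -0.118 and without day 2 it was -0.011. One of the 15 genes lies on the Y chromosome, and it is counted here without its values being given.

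eIF2, the complex that brings the initiator tRNA, is the target of stress kinases, and eIF2B is its exchange factor. EIF2S2, the beta subunit, read 0.60 on day 1 and -0.19, -0.04 and -0.15 on days 2 to 4, and each of its 3 probes was above 0 on day 1 and below 0 on day 2. EIF2S1, the alpha subunit that these kinases phosphorylate, had values of -0.06, -0.46, -0.06 and 0.08 (mean -0.12 ± 0.23). Its day 2 value came from 1 of 3 probes, and without day 2 the mean was -0.011. EIF2B1, a regulatory subunit of eIF2B, was above 0 on all days at 0.43, 0.17, 0.13 and 0.11 (mean 0.21 ± 0.15, and 0.137 without day 1), with a probe at 0.887 on day 1 that had no day 2 value. EIF2B2 had values of 0.303 on day 1 and 0.218 on day 4 only. EIF5, which triggers GTP hydrolysis by eIF2, read 0.58, 0.93, 0.65 and 0.07 (mean 0.56 ± 0.36; limma adjusted p = 0.243), the largest mean of the class.

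The scaffold complex eIF3 joins the mRNA-bound factors to the small subunit, and its measured genes were on both sides of 0. EIF3B read 0.04, -0.15, -0.52 and -0.49 (mean -0.28 ± 0.27; limma adjusted p = 0.451), lower on both of the last days than on both of the first. EIF3C was below 0 on all 4 arrays at -0.31, -0.45, -0.11 and -0.13 (mean -0.25 ± 0.16), although 1 of its 3 probes had a mean above 0. EIF3E read 0.31, 0.15, -0.12 and 0.01 (mean 0.09 ± 0.18). EIF3M had values of 0.113 and -0.063 on days 3 and 4, and EIF3H had none. EIF1AX, a scanning factor, was measured on day 4 alone, at 0.477.

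Cap recognition is the step of the eIF4 genes. EIF4E, the cap-binding protein, read 0.66, -0.29, -0.02 and -0.04, with a mean of 0.08 ± 0.41 (limma adjusted p = 0.864). On day 1 its probes read 1.579, 0.396 and 0.016, and on day 2 they ran from -0.953 to 0.16, so single probes carried both averages. The 95% interval of this mean ran from -0.32 to 0.48, so changes within that range in either direction were not excluded by these arrays. EIF4EBP1, the inhibitor that sequesters eIF4E until mTOR phosphorylates it, was likewise above 0 on day 1 alone, at 0.67, -0.37, -0.46 and -0.37 (mean -0.13 ± 0.54). EIF4E2, a cap-binding homologue, read -0.22, -0.70, 0.09 and 0.01, with 1 of its 2 probes missing on day 2.

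EIF4G1, the scaffold between cap and ribosome, was above 0 on days 1, 2 and 4 (0.42, 0.46 and 0.17) and at -0.77 on day 3, from 1 probe. EIF4G2, a related scaffold that works without cap binding, was above 0 throughout at 0.70, 0.36, 0.36 and 0.30 (mean 0.43 ± 0.18; limma adjusted p = 0.243). EIF4H, a helper of the RNA helicase, read 0.09, 0.66, 0.01 and -0.17, and 1 of its probes stood at 1.108 on day 2. EIF6, which keeps free large subunits from joining, read 0.48, 1.32, 0.16 and -0.08 (mean 0.47 ± 0.61), and without day 2 its mean was 0.189. Leaving out day 1 gave means of -0.118 for EIF4E, -0.125 for EIF2S2 and -0.4 for EIF4EBP1. Leaving out day 2 gave -0.057 for EIF4G1, -0.026 for EIF4H and -0.041 for EIF4E2. Thus EIF5, EIF4G2 and EIF2B1 were the 3 initiation genes above 0 on all arrays.

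**Figure D3:**
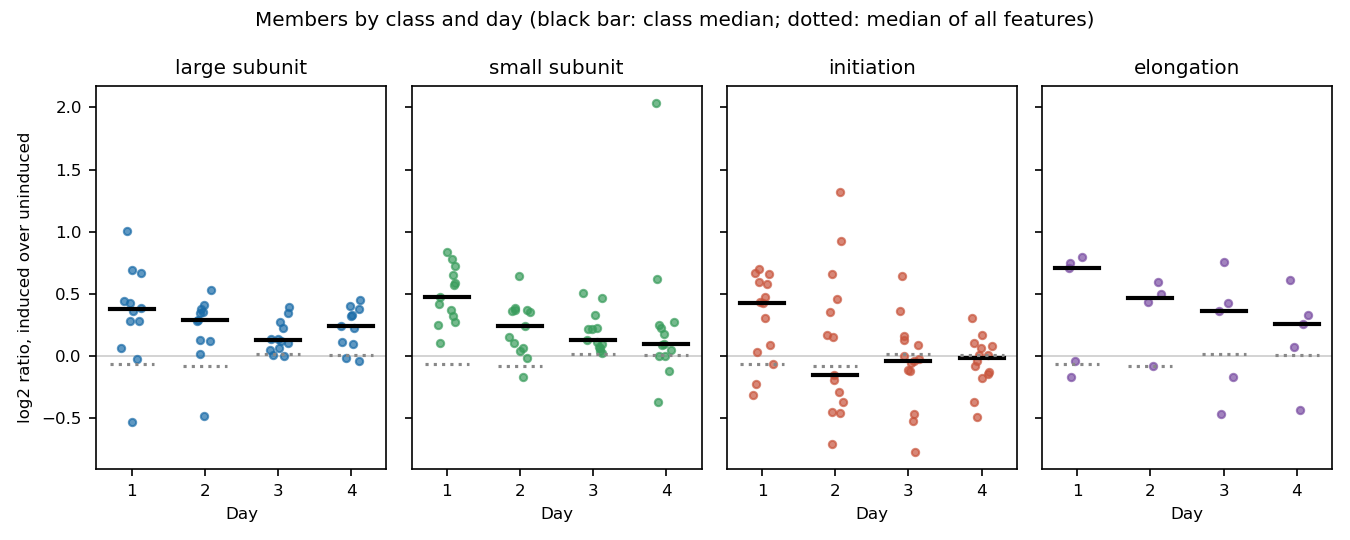
Log2 ratios (induced over uninduced, vertical axis) of single genes as points by day in a panel for each class, with the class median as a black bar and the median of all features tested as a dotted line; the Y-linked gene is left out of the points. The ribosomal and elongation medians lie above the dotted line on all 4 days, the initiation median only on day 1.

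Set against each other per day, the ribosomal and initiation medians were close on day 1, and the ribosomal median was the higher on the later days. The large subunit median minus that of the small subunit was -0.097, 0.051, 0.007 and 0.14 on days 1 to 4, a mean of 0.03 ± 0.10 (SD over days), which is within the spread between days. The ribosomal median minus the initiation median was -0.004 on day 1 and 0.44, 0.16 and 0.21 on days 2 to 4. The mean difference was 0.20 ± 0.18. For the small subunit alone the difference from initiation was 0.049, 0.39, 0.16 and 0.12, so on day 4 its median lay nearer to initiation than to the large subunit. The elongation median exceeded the initiation median on all 4 days, by 0.29, 0.62, 0.40 and 0.27, a mean of 0.39 ± 0.16. With 5 elongation genes, and 4 on day 2, that median was the value of EEF1A1 on day 1 and of EEF1D on days 3 and 4. The excess therefore repeats that of the eEF1 genes. With 1 array for each day these daily differences have no replicate check.

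The TOP-like start followed the same division. The 16 genes with such a start and a mean ratio had a median mean of 0.28, with 15 above 0. The 16 genes without one that were compared had a median of 0.11, with 11 above 0. The comparison drew on 37 of the 38 genes found in the promoter table, less those without a mean ratio. RPL10 was the gene with a TOP-like start and a mean below 0. RPS4X and RPL27, among the highest means of their classes (0.64 and 0.48), had none at the annotated starts shown above. The other ribosomal genes compared without one were RPS29 and RPL9, with means of 0.18 and 0.05. Ribosomal genes with a TOP-like start had means from -0.02 (RPL10) to 0.52 (RPLP1). Within the ribosomal genes a link of start and ratio was not tested. Nearly all TOP-like starts belonged to ribosomal and eEF1 genes, and most genes without one were initiation genes. Over all classes, start sequence and class therefore cannot be told apart here.

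A linear trend over the days was tested for 41 members with values on all arrays. No member passed (0 of 41 with limma, smallest adjusted p = 0.304), as for the 6427 features as a whole, of which 0% passed. Slopes below 0 were found for 34 of 41 members, against 45.8% of all features, and the members' median slope was -0.10 log2 per day against 0.02 over all features. The day 1 array gave the highest of the 4 values for 26 of 41 members, against 31.3% of all features. Neither these slopes nor the ranks of days are scaled for the larger spread of the day 1 and day 2 arrays. An unadjusted p under 0.05 was found for 1 negative slope, against 5.73% of all features, and for 2 positive ones, against 9.26%. The class medians were -0.06 for the large subunit, -0.10 for the small subunit, -0.16 for initiation and -0.10 for elongation.

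RPS20 had the steepest negative slope, -0.35 ± 0.08 log2 per day (SE; limma adjusted p = 0.304). From its complete probe alone it was -0.20 ± 0.085, so part of the slope came from the probe that entered on day 3. RPS9 had a slope of -0.21 ± 0.09. For RPS25 the slope was -0.17 ± 0.08 from the average and -0.01 ± 0.09 from its complete probe. EIF4EBP1 and EIF3B, each measured by the same probes on all days, had slopes of -0.32 ± 0.14 and -0.19 ± 0.09. The positive slopes with an unadjusted p under 0.05 were those of RPL21P106 (0.33 ± 0.10) and RPS15A (0.61 ± 0.23, which rests on day 4). For RPL21 the slope was -0.21 ± 0.13, and for RPL13 -0.11 ± 0.08. From their complete probes these were -0.16 ± 0.12 and -0.08 ± 0.08. EEF1A1, with a slope of -0.05 ± 0.09, and RPS4X, with -0.08 ± 0.09, had slopes within 1 SE of 0.

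Probes of the same gene mostly agreed in the sign of their means. Among 25 members with several probes measured on at least 3 arrays, 18 had probes of 1 sign and 7 had both signs. All 8 such EEF1A1 probes were above 0, from 0.26 to 0.82, and all 3 RPS4X probes, from 0.53 to 0.85. The 3 RPL27 probes lay between 0.35 and 0.56. RPL13 had 8 probes above 0 and 1 below, from -0.10 to 0.79. RPL5 had 2 on each side, from -0.09 to 0.50, and EIF4E likewise, from -0.17 to 0.31. By probe, 49 of 55 ribosomal protein probes, 12 of 14 elongation probes and 18 of 30 initiation probes had means above 0. The share over all features, counted by feature and not by probe, was 43.9%. EEF1A1 gave 8 of the elongation probes and RPL13 9 of the ribosomal ones, so these counts largely repeat those by gene.

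**Figure D4:**
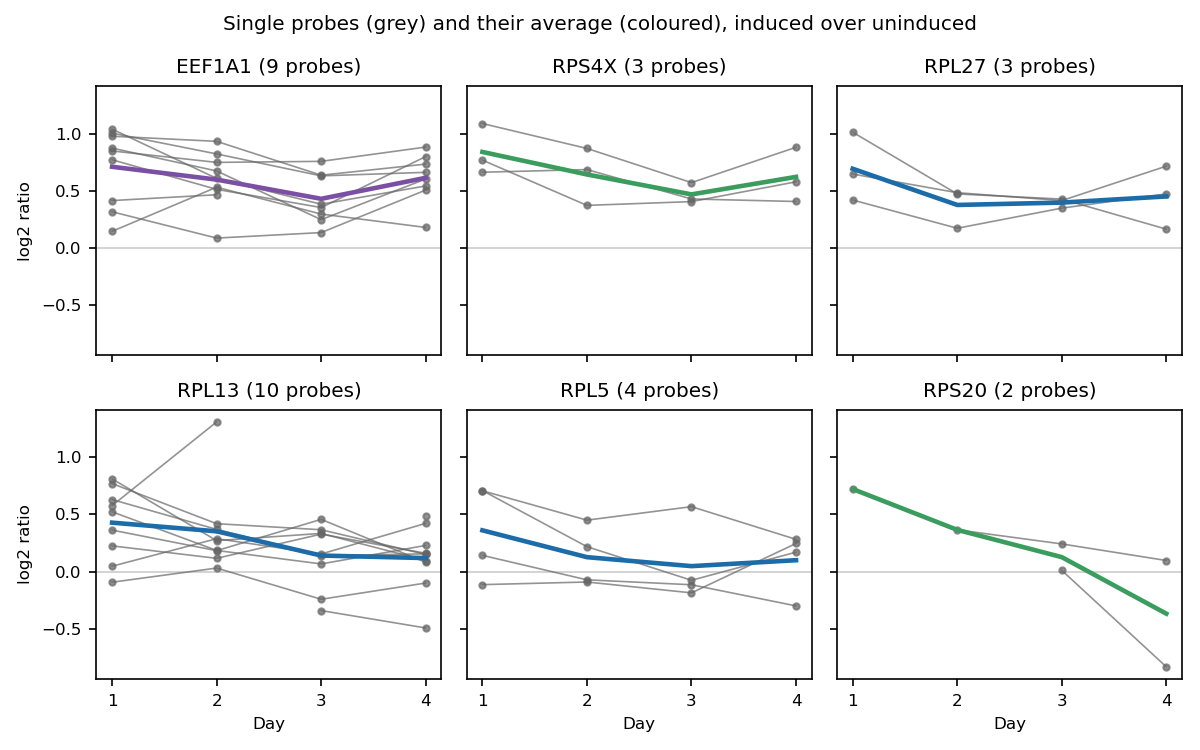
Log2 ratios (induced over uninduced, vertical axis) by day for every probe with a value of 6 genes, as thin grey lines, with the average per gene as a thick coloured line. EEF1A1, RPS4X and RPL27 probes all stay above 0, RPL13 and RPL5 probes lie on both sides, and the RPS20 average falls below 0 with a probe that has values on days 3 and 4 only.

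More features passed over the whole table, and some members with them, once the arrays of days 1 and 2 were left out or given less weight. Those arrays had the larger spread. With days 3 and 4 alone 630 features passed, against 26 with all 4 arrays. Of the members 5 of 43 passed, not far from the 8.3% of all features. With days 1 and 2 alone 0 of 43 members passed, and 1 feature did over the whole table. RPS4X (0.54, limma adjusted p = 0.0248), EEF1A1 (0.52, limma adjusted p = 0.0292), EEF1B2 (0.54, limma adjusted p = 0.0391) and RPL27 (0.42, limma adjusted p = 0.0483) were higher in induced cells. These are 4 members, against 4.69% of features on the higher side. EIF3B was lower, at -0.50 (limma adjusted p = 0.0291). With arrays weighted by their precision, EEF1A1 (0.53), EEF1B2 (0.59) and RPS4X (0.56) passed, with limma adjusted p-values of 0.0354, 0.0441 and 0.0305. This is 3 of 45 members, against 2.22% of features in either direction and 1.21% on the higher side.

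Other genes of protein synthesis came from lists of their own, and 0 of them passed on the mean with limma. An unadjusted p under 0.05 was found on the higher side for 1 of 21 biogenesis genes, 3 of 9 oligopyrimidine mRNAs and 1 of 11 mitochondrial ribosomal genes, against 6.47% of all features. On the lower side it was found for 1 of 18 genes of translation control, against 6%. Of 21 genes of ribosome biogenesis, which make and assemble ribosomal subunits in the nucleolus, 14 had means above 0, with a median of 0.07. PES1, a processing factor of the large subunit, had the largest at 0.58 ± 0.32, followed in test statistic by PPAN at 0.26 ± 0.15. The biogenesis medians per day were 0.17, 0.095, 0.14 and -0.02.

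Among other mRNAs known for an oligopyrimidine start, 7 of 9 had means above 0, with a median of 0.19 and medians per day of 0.46, 0.36, 0.05 and 0.18. TPT1, the translationally controlled tumour protein, read 0.64, 0.77, 0.17 and 0.52 (mean 0.52 ± 0.26; limma adjusted p = 0.219). BTF3, a subunit of the nascent chain complex, read 0.68, 0.36, 0.48 and 0.29 (mean 0.45 ± 0.17; limma adjusted p = 0.226). PABPC1, the poly(A)-binding protein and also a TOP mRNA, was at -0.25 ± 0.18.

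Termination, recycling and mRNA-binding genes were evenly divided, 6 of 12 above 0 with a median of -0.02, and PAIP2 at 0.21 ± 0.10. PABPC1 belongs to this list as well. Of 18 kinases and phosphatases of translation control, 11 had means below 0 and 7 above (median -0.03, range -0.44 to 0.68). Among them RPS6KA2 was at -0.44 ± 0.34 and RHEB, the GTPase that activates mTOR, at -0.30 ± 0.31. Mitochondrial ribosomal protein genes, which serve the separate ribosome of that organelle, had 5 of 11 means above 0 and a median of -0.03. MRPS15 and MRPS31 were at 0.28 ± 0.05 and 0.25 ± 0.09.

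**Figure D5:**
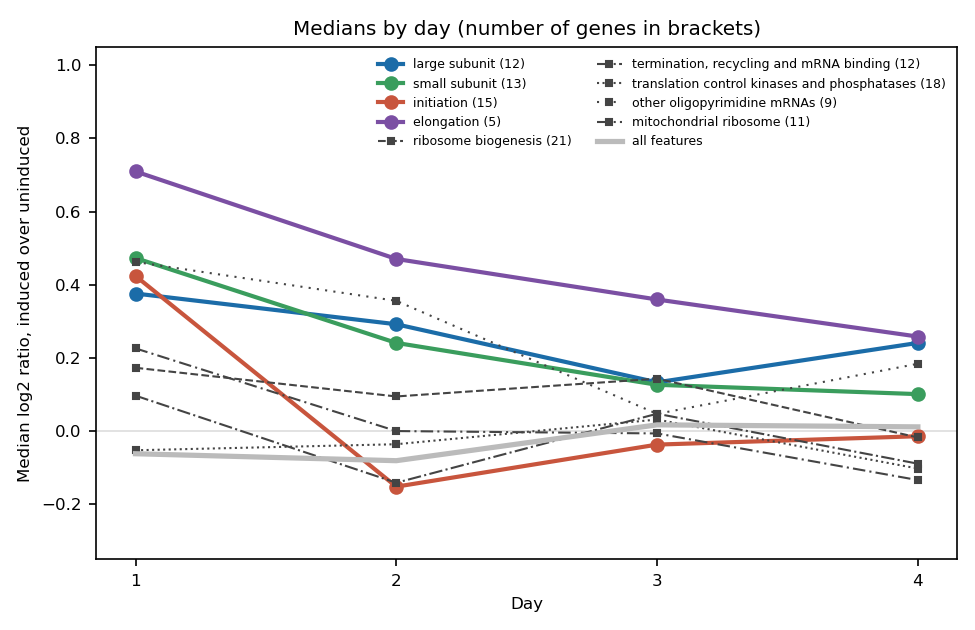
Median log2 ratio (induced over uninduced, vertical axis) on each day for the 4 classes in colour, 5 other lists of protein synthesis genes in dark lines and all features tested in light grey, with the number of genes in brackets. The elongation, large and small subunit lines stay above the grey line on all days, and the initiation line drops from 0.424 on day 1 to -0.152 on day 2.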

How the data were processed

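RNA from induced (Cy5) and uninduced (Cy3) EJM cells was hybridised to 4 two-colour cDNA arrays. The authors deposited a log ratio for each probe, used here as log2. The background correction, normalization, log base, ratio direction and spot filter are not stated in the labels or the table. Spot intensities were not used here. Of 15246 probes, 10169 had a single gene symbol, 4 had several and 5073 are unnamed here. Probes were averaged by symbol, and unnamed probes stayed separate. Updating symbols through RefSeq identifiers, matched for 10128 probes, left the 51 members the same.

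The mean was tested against 0 for 7713 features with at least 3 values, and the slope on day for 6427 with 4, with limma 3.58.1 in R 4.3.3 (lmFit, eBayes, two-sided, Benjamini-Hochberg, threshold 0.05). The fits were tested on simulated data. Ratios against 0 leave out the spread of the control. The number of arrays limits the precision. Members and lists were chosen with earlier results of these data known.

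Values on every array are given for the 4 members of each class with the largest moderated statistic on the mean, the 2 with the largest on the slope, and a fixed list of well-known members. Daily values of further members, and probe values, were added after they were seen. Genes of other lists are the 2 with the largest statistic. Other lists were plasma cell, T cell, myeloid and red cell markers, ribosome biogenesis, termination and mRNA binding, kinases and phosphatases, oligopyrimidine mRNAs and mitochondrial ribosome. A further list is not reported here. Alternatives covered scaling, centring, quantile normalization, array weights, probe choice, missing values, the arrays and the members included.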

Additional observations from a re-analysis of the deposited data

Results flagged for a closer look

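Of 45 sets of 4 values examined (41 genes measured on all days and the medians of the 4 classes), 4 had 1 array set apart from the others by more than Dixon's criterion, and about 1 in 20 would by chance. RPS15A stood at 2.032 on day 4, with the next value at 0.116. EIF4EBP1 stood at 0.672 on day 1, with the next value at -0.368. EIF4G2 stood at 0.703 on day 1, with the next at 0.361. RPS12 stood at -0.013 on day 2, with the next at 0.222, an average that includes a probe measured on day 3 alone (0.536). The complete RPS12 probe read -0.091 on day 3, so on that probe day 2 was neither the lowest nor set apart. RPS15A, EIF4EBP1 and EIF4G2 rest on 1 probe each, and whether their values are a time course or a single spot was not tested.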

How the results depend on the processing

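No paired analysis was possible because the labels give 1 group of arrays, each already a ratio of induced to uninduced cells. On the mean 0 members passed, as with scaling, centring, quantile normalization, other probes or filters, and without any single array. With array weights 3 passed, with days 3 and 4 alone 5 and with days 1 and 2 alone 0. On the slope 0 passed under every alternative run. Leaving out 1 array gave class medians from 0.211 to 0.283 (large subunit), 0.149 to 0.294 (small subunit), -0.118 to 0.112 (initiation) and 0.373 to 0.537 (elongation). With days 1 and 2 alone the large subunit median was 0.39. Without RPL21P106, EIF4EBP1 and EEF2K the class medians were 0.26 (large subunit), 0.231 (small subunit), 0.075 (initiation) and 0.524 (elongation). Taking for each gene 1 probe with the fewest missing values, the first listed where several tied, the elongation median was 0.26. That is the value of EEF1A1, for which 8 probes tied and the one taken had the lowest mean. Averaging all EEF1A1 probes with 4 values gave 0.601. For 14 members the probes with values differed between arrays, and 16 rest on 1 probe. Signs of member means differed from those reported for 10 of 43 members with days 3 and 4 alone and for 0 to 5 under the other alternatives.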
